A study of Mus musculus with 24 samples.

Results

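Striatum and cerebellum were compared within mice that carry an expanded huntingtin allele, and that regional contrast was then set against the same contrast in wild-type mice. The 12 arrays concerned, of 24 in the series, are 6 of striatum and 6 of cerebellum from HdhQ111/HdhQ111 mice, which are homozygous for a knock-in allele with a lengthened CAG repeat in the mouse huntingtin gene. The other 12 are 6 of each tissue from Hdh+/Hdh+ mice, labelled Q7/Q7 for their short repeat. Every group has the same labelled age of 3 to 10 weeks, and the labels used here name no treatment, strain or sex. They call the replicates biological without naming mice, so a p-value here covers only the spread among these samples, which may be technical in part. Total RNA was read on Affymetrix MG430 2.0 arrays. A probe set, the group of probes that reads a transcript, was tested if its mean reached 4 on the deposited log2 scale in Q111 striatum or Q111 cerebellum, which 20749 of 45037 did. They stand for 10776 genes, each read by its brightest tested probe set.

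The striatum is built almost wholly of inhibitory projection neurons that receive dopamine. Those of the direct pathway carry the D1 receptor and substance P, and those of the indirect pathway carry the D2 receptor and enkephalin. The cerebellum is dominated by small excitatory granule neurons and by the large Purkinje neurons they drive. In Huntington's disease the striatal projection neurons are lost first, while the cerebellum is relatively spared. The knock-in allele is expressed from the gene's own promoter in all cells, so both tissues carry it.

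The labelled tissues matched their defining markers. Drd1, Drd2, Ppp1r1b, Penk, Tac1 and Rgs9 were each at least 3.78 log2 units higher in Q111 striatum than in Q111 cerebellum, and Gabra6, Cbln1, Cbln3, Pcp2, Car8, En2 and Zic1 at least 5.72 higher in cerebellum. Barhl1 and Lhx9 did not pass the filter. The striatal samples also read genes of tissue that lies beside it: the cortical transcription factors Neurod6 and Tbr1 averaged 6.99 and 7.76, and Ttr of the choroid plexus ran from 12.26 to 15.85. In the cerebellum Ttr ran from 6.26 to 13.15. The part of such neighbouring tissue in the results was not tested. Xist, the transcript of the inactive X chromosome, ran from 3.45 to 10.97 over the Q111 striatum arrays and from 4.59 to 10.99 over the Q111 cerebellum arrays, so both groups held arrays high and low in it. On the cerebellum arrays numbered 1 to 3 it lay at 7.26 to 7.34 in both genotypes, between the low and high values of numbers 4 to 6. In striatum Xist was high on Q111 arrays 1 and 4 (8.55 and 10.97). Wild-type striatum arrays 1, 3 and 6 were high as well (9.37, 10.33 and 10.66). Among cerebellum numbers 4 to 6 it was high on Q111 arrays 4 and 5 (10.15 and 10.99) and wild-type array 6 (11.41). The Y-linked gene Eif2s3y ran from 3.14 to 5.68 in Q111 cerebellum and from 3.12 to 6.71 in wild-type cerebellum. The genotypes were not matched in these genes, and their part in the results was not tested. Pairs of Q111 arrays from the same tissue had a correlation over probe sets of 0.985 to 0.992, and pairs from different tissues 0.812 to 0.839.

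In Q111 mice most of the measured transcripts differed between the tissues. Tested with limma at a Benjamini-Hochberg adjusted p of 0.05, 6500 probe sets (31.3%) were higher in striatum and 8308 (40%) were higher in cerebellum. With a difference of at least 2-fold, 1 on the log2 scale, 2546 (12.3%) were higher in striatum and 2641 (12.7%) in cerebellum. Counted once per gene, 3543 (32.9%) were higher in striatum and 4381 (40.7%) in cerebellum, and 1371 (12.7%) and 1308 (12.1%) were so by at least 2-fold. The gene lists are read against these shares: a list whose members pass each way about as often as all genes do does not stand apart. In 755 of the 2546 the cerebellum mean, and in 688 of the 2641 the striatum mean, lay under 4, near the array's background. For such genes the size of the printed difference rests on a background value; where setting values under 4 to 4 shrinks it by over 1.5 times, the smaller value is given too, as "at least" or with that setting named. In bulk tissue, fewer cells of a type and less RNA per cell cannot be told apart.

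The deposited values carry 1 limit on this contrast. Of 22836 probe sets that lay under 4 on all 24 arrays, 323 (1.41%) differed between the tissues by over 10 times their spread within a tissue. The lowest value on an array was 0.36 to 0.38 in striatum and -0.77 to -0.66 in cerebellum. No source used here says whether both tissues went through 1 normalisation. An offset shared by both genotypes would enter the Q111 and the wild-type contrast alike and leave their difference unchanged.

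The 12 largest differences in favour of striatum ran from 8.36 to 10.23. Ddn, which encodes the postsynaptic protein dendrin, read 12.18 to 12.81 (median 12.45) on the 6 Q111 striatum arrays and 1.67 to 2.84 (median 2.29) on the 6 cerebellum arrays. Its difference was 10.23 (SE 0.21, adjusted p = 2.6e-22), or at least 8.46 with low values raised to 4. Tac1, which encodes substance P, ran from 13.14 to 14.01 in striatum and from 3.32 to 4.76 in cerebellum, a difference of 9.32 (SE 0.22). Both genes were near the top of the array's range in one tissue and near its floor in the other. They were followed by neurogranin (Nrgn, 9.05), the dopamine D2 receptor (Drd2, 8.95), the zinc finger factor Egr3 (8.95), the orphan receptor Gpr6 of indirect pathway neurons (8.92), cortexin (Ctxn1, 8.86) and the kinase Pyk2 (Ptk2b, 8.81). The rest of the 12 were Ankrd63 (8.50), the potassium channel partner Kcnip2 (8.46), the G protein regulator Rgs4 (8.42) and the homeobox factor Meis2 (8.36). Their wild-type differences ran from 8.33 for Meis2 to 10.19 for Ddn. The order depends on the background values: with values under 4 set to 4, Tac1 (9.17) and Ctxn1 (8.50) came before Ddn, Nrgn was at 8.38, Rgs4 and Kcnip2 at 8.21, Drd2 at 7.23, Ptk2b at 6.65 and Ankrd63 at 5.84.

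The 12 largest differences in favour of cerebellum ran from -7.16 to -11.14. Gabra6, the GABA-A receptor subunit of granule neurons, ran from 13.78 to 13.95 in Q111 cerebellum and from 2.55 to 2.85 in Q111 striatum. The difference of -11.14 (SE 0.07, adjusted p = 1.43e-32) equalled that of wild type to 2 decimals. Cbln3 (-11.06) and Cbln1 (-10.17) encode cerebellins, secreted by granule neurons onto Purkinje synapses, and Pcp2 (-11.05) is a G protein modulator of Purkinje neurons. Next came the granule neuron factor Neurod1 (-9.43), Cnpy1 (-8.67), calretinin (Calb2, -8.09), the hindbrain homeobox factor En2 (-7.96), Ppp1r17, a phosphatase inhibitor of Purkinje neurons (-7.65), the cadherin Fat2 of granule neurons (-7.62), carbonic anhydrase 8 (Car8, -7.36) and Arhgef33 (-7.16). These 24 genes were picked for the size of this difference, so it is no separate evidence that the Q111 tissues overlapped in none of them. Cerebellar genes varied more on the striatal arrays than Gabra6 did: Cbln1 ran there from 2.94 to 5.15 and Calb2 from 3.71 to 6.48.

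**Figure D1:**
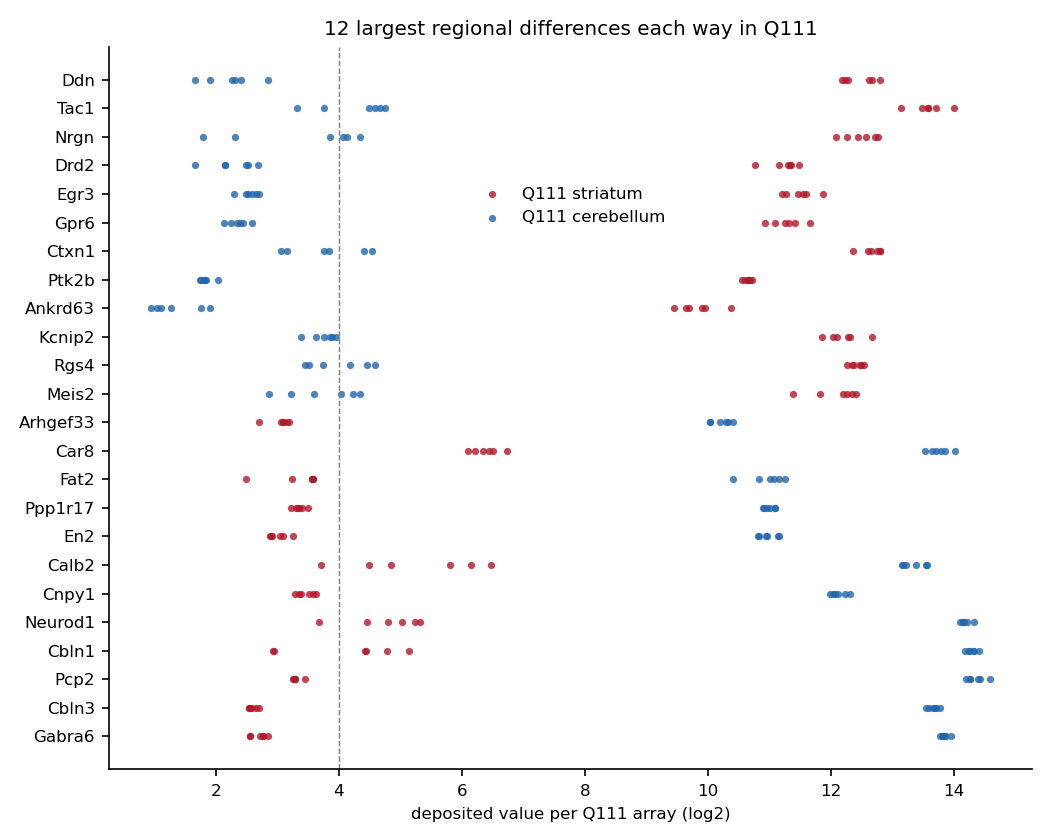
Deposited log2 value (horizontal axis) of the 12 genes with the largest Q111 difference each way (rows), with 1 point for each of the 6 Q111 striatum (red) and 6 Q111 cerebellum (blue) arrays; the dashed line marks 4. The 24 genes were picked for the size of this difference, so the lack of overlap between the tissues is no separate evidence. The dim tissue of most lies at or under 4.

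Genes of striatal neurons followed the labelled tissue in Q111 mice. Of 33 measured genes shared by striatal projection neurons, 33 were higher in striatum, each by at least 2-fold, with a median of 4.80. Ankrd63 and Meis2 led, followed by Bcl11b (7.64), a zinc finger factor these neurons need to mature, and the phosphodiesterase Pde1b (7.59). Among direct pathway genes 9 of 11 were higher in striatum: beside Tac1, the D1 receptor Drd1 (8.24), the transporter-like Slc35d3 (6.26) and the homeobox factor Isl1 (4.92, at least 2.63). The 2 higher in cerebellum were the transcription factors Ebf1 (-1.61) and Zfp521 (-3.06). Here and below, list members outside the 4 largest of a list were chosen after their values were seen.

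Among indirect pathway genes 5 of 7 were higher in striatum. Penk, which encodes the enkephalin precursor, ran from 13.19 to 13.70 in striatum and still read 9.45 to 10.01 in cerebellum, so its difference of 3.78 was small beside that of Drd2. Nt5e, which makes adenosine outside the cell, differed by 2.40. Plxdc1 (-1.50) and Adk (-0.24) were higher in cerebellum. Of 10 striatal interneuron genes 5 were higher in striatum, led by somatostatin (Sst, 8.02), and 4 in cerebellum: Calb2, Zic1 (-5.72), parvalbumin (Pvalb, -5.54) and Nos1 (-0.99), which cerebellar neurons also express.

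Most dopamine and cAMP signalling genes were higher in striatum. Of 35 measured 27 were higher in striatum and 5 in cerebellum, with a median of 2.99. The cAMP-making enzyme Adcy5 (4.73), the G protein subunits Gng7 (6.62) and Gnal (2.83), the phosphodiesterase Pde10a (4.34) and the phosphatase inhibitor Ppp1r1b (4.54) were on the striatal side. The cyclases Adcy1 (-2.56) and Adcy8 (-2.57), which calcium activates, were on the cerebellar side. Of 24 neuropeptide genes and receptors 20 were higher in striatum, among them neurotensin (Nts, 5.02) and the somatostatin receptor Sstr4 (4.85, at least 3.02), and 3 in cerebellum, led by the corticotropin-releasing hormone receptor Crhr1, with the somatostatin receptor Sstr3 next (-2.04).

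Receptor families divided between the tissues by subunit. Of 9 measured GABA-A receptor subunit genes 6 were higher in Q111 striatum and 3 in Q111 cerebellum. Gabra5 differed by 4.85, Gabra4 by 3.40, Gabra3 by 2.79 and Gabra2 by 1.90, whereas Gabra6, Gabrd (-1.46) and Gabrb2 (-0.90) were higher in cerebellum. Of 18 glutamate receptor genes 11 were higher in striatum and 6 in cerebellum. The metabotropic receptor Grm5 ran from 11.55 to 12.33 in striatum and from 3.16 to 4.06 in cerebellum (8.34), and Grm4 lay on the other side (-3.24). The NMDA receptor subunits split likewise, with Grin2b at 5.59 and Grin2c, the granule neuron form, at -3.49.

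Ion channel genes also lay on both sides. Over all genes 32.9% were higher in striatum and 40.7% in cerebellum. For calls of any size the potassium channel, calcium-binding and vesicle lists below lay near those shares. By at least 2-fold, 14 of 38 potassium channel genes were higher in striatum and 12 in cerebellum, against 12.7% and 12.1% of all genes. For calcium-binding genes these were 8 and 10 of 30, and for vesicle genes 9 and 8 of 35. At 2-fold each of these lists thus lay above the shares of all genes on both sides. Of 38 potassium channel genes 16 were higher in striatum and 18 in cerebellum; the striatal side was led by Kcnip2, the inward rectifier Kcnj4 (6.46), Kcnq5 of the M-current family (6.43) and Kcna5 (6.02, at least 3.65), and the cerebellar side by the leak channels Kcnk10 (-4.65) and Kcnk3 (-4.24). Of 24 sodium and calcium channel genes 13 were higher in striatum, with Scn3b (6.57), Cacna1h (6.27), Scn3a (6.19) and Cacng3 (5.61) in the lead, and 9 in cerebellum. There the T-type channel Cacna1g (-4.68) and the P/Q-type channel Cacna1a (-1.95), both strong in Purkinje neurons, stood out. Calcium-binding genes were 13 against 14 of 30, from Nrgn and Camkv (7.09) to Pvalb and Calb2. Of 35 synaptic vesicle genes 14 were higher in striatum and 17 in cerebellum, with the synaptotagmins Syt5 (5.10) and Syt6 (3.50, at least 0.84) and the syntaxin Stx1a (4.63) against the synaptotagmin Syt2 (-3.61).

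**Figure D2:**
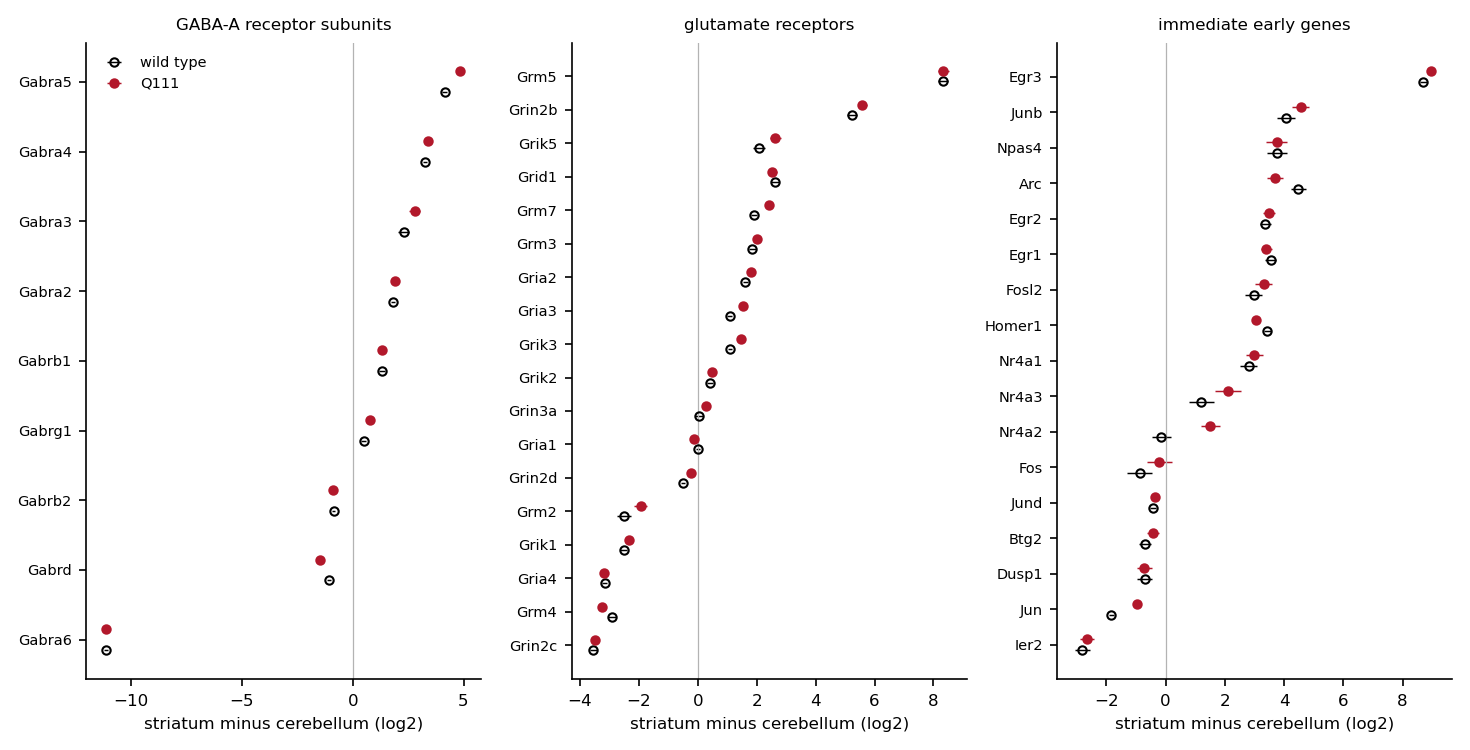
Striatum minus cerebellum (horizontal axis, log2; bars are the SE of the fit, n = 6 arrays a group) of each measured gene of 3 families in Q111 (filled) and wild-type (open) mice. The families split by subunit in both genotypes, from Gabra6 at -11.14 to Gabra5 at 4.85 in Q111, and Jun, at -0.95 in Q111 and -1.83 in wild type, is the member whose change passed the test.

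Cerebellar cell types lay on the other side. All 25 granule neuron genes measured were higher in Q111 cerebellum, 21 by at least 2-fold, with a median of -4.22. Of 28 Purkinje neuron genes 19 were higher in cerebellum and 8 in striatum. The 8 included Nrgn, Pde1b and the GABA-making enzymes Gad1 (0.50) and Gad2 (2.40). Nrgn averaged 3.42 in Q111 cerebellum, under the filter of 4. Of 15 genes of molecular layer interneurons and Golgi cells 11 were higher in cerebellum, led by Tfap2b (-4.39, or -2.72 with values under 4 set to 4), Megf11 (-4.31) and the receptor Kit (-2.83). Of 13 Bergmann glia genes 11 were higher there, led by Gdf10 (-4.37), Hopx (-4.20), Timp4 (-3.74) and A2m (-3.47). Patterning factors also differed between the tissues. Of 14 hindbrain factors 12 were higher in cerebellum, among them Mab21l1 (-6.33), Lhx1 (-6.19) and Uncx (-5.96). Of 18 forebrain factors 17 were higher in striatum, among them Rarb (5.39), a retinoic acid receptor.

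Support cells were also unevenly divided. Of 15 microglia genes 14 were higher in Q111 striatum, with a median of 2.00, and Trem2 did not pass (-0.28); the purine receptor P2ry12 differed by 3.01, Cd68 by 2.58 (at least 0.58), Tmem119 by 2.39 (at least 1.55) and the complement gene C1qc by 2.39. Of 18 myelinating oligodendrocyte genes 17 were higher in striatum, with a median of 1.10, led by Opalin (2.66), Mal (1.80), Myrf (1.59) and Mog (1.58). Of 8 precursor genes 6 were higher there, among them Olig2 (2.17), Gpr17 (2.13), Pdgfra (2.05) and Olig1 (1.66). Astrocyte genes leaned to the cerebellum, 13 of 19 against 4, with angiotensinogen (Agt, -2.92), the water channel Aqp4 (-2.89), the glutamate transporter Slc1a3 (-2.11) and Atp1b2 (-2.06); its partner transporter Slc1a2 (1.61) was higher in striatum. Endothelial and mural genes differed little: 4 of 10 were higher in striatum (Flt1 0.82, Acta2 0.59, Pdgfrb 0.40, Rgs5 0.38) and Vtn (-0.95) in cerebellum, and 5 did not pass.

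Lists for tissue that the dissection could carry gave these values. Of 11 cerebral cortex genes 5 were higher in striatum, namely Lamp5 (7.74), Tbr1 (3.49), Neurod6 (3.36), Mef2c (3.01) and Fezf2 (2.08, at least 0.81), and 5 in cerebellum. Of 11 thalamus and septum genes 2 were higher in striatum, Lhx2 (4.62, at least 2.70) and Synpo2 (4.38), and 6 in cerebellum. Of 11 choroid plexus and ependyma genes 4 were higher in striatum: Ttr by 4.65 with an SE of 1.21, Clic6 by 2.24, the ciliary factor Foxj1 by 0.79 and Ccdc153 by 0.58; Otx2 (-2.36) was higher in cerebellum. Of 9 meninges genes 8 were higher in cerebellum, among them the prostaglandin synthase Ptgds (-3.36), Col3a1 (-2.92, or -1.75 with values under 4 set to 4), decorin (Dcn, -2.76) and Col1a2 (-2.08). Their part in the other differences was not tested.

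Metabolic genes differed by less. All 52 oxidative phosphorylation genes read higher in Q111 cerebellum, and 46 of the 52 passed, 1 of them by at least 2-fold, with a median of -0.35. Cox7c (-1.24), cytochrome c1 (Cyc1, -0.93), Ndufa4 (-0.86) and Atp5e (-0.82) led. Of 29 ribosomal protein genes 14 were higher in striatum and 2 in cerebellum, with a median of 0.13 and with Rps2 (1.07), Rpl22 (0.73), Rpl41 (0.51) and Rps19 (0.49) in the lead; other probe sets of Rpl22 and Rpl41 passed with the opposite sign. Of 20 cholesterol synthesis genes 9 were higher in striatum and 6 in cerebellum, from Msmo1 (1.45) and the regulator Srebf2 (1.30) to Ebp (-1.47) and Stard4 (-1.81). Of 18 clock genes 9 and 4 were, led by Npas2 (5.29), which takes the place of Clock in forebrain, and by Per2 (1.80) against Rora (-2.59).

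Htt itself did not pass between the Q111 tissues. It read 7.59 to 7.98 in Q111 striatum and 7.50 to 7.95 in Q111 cerebellum, overlapping ranges with a difference of 0.15 (SE 0.09, adjusted p = 0.135). Of its 2 other tested probe sets 1 passed with the opposite sign (-1.12). Of 18 huntingtin partner genes 5 were higher in striatum, led by Rasd2 (5.89), which encodes the striatal protein Rhes, Sh3gl3 (3.80) and Hap1 (0.99), and 9 in cerebellum, led by the factor Sp1 (-1.83). Of 12 genes of mismatch repair and repeat instability 8 were higher in cerebellum, among them Lig1 (-1.32, or -0.88 with values under 4 set to 4), Msh6 (-1.23), Rpa1 (-1.18) and Pms2 (-1.01). Mlh3 (1.03) and Rpa2 (0.29) were higher in striatum, and Msh3 did not pass (-0.01).

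Of signalling and guidance genes, 11 of 17 in thyroid and retinoid signalling were higher in striatum, among them the retinoid receptor Rxrg (6.35) and Crym (5.83), which binds thyroid hormone, and 5 in cerebellum, led by the retinoic acid synthesising enzyme Aldh1a1 (-3.57). Of 43 guidance and adhesion genes 29 were higher in striatum and 12 in cerebellum; the netrin receptor Dcc differed by 5.85 and netrin itself (Ntn1) by -3.09. Cdh9 (4.62), Cdh13 (3.95) and the ephrin receptor Epha4 (3.79) were also higher in striatum. Of 23 growth factor genes 7 were higher in striatum, led by the receptor Gfra1 (3.33, at least 2.09) and Igfbp4 (3.22), and 11 in cerebellum, led by Ret (-4.01) and Gli1 (-2.61), whose difference was -0.11 once values under 4 were raised to 4. Brain-derived neurotrophic factor (Bdnf) was higher in cerebellum by 1.85 in Q111 and by 2.88 in wild type, and that change missed the threshold.

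These regional differences were then set beside the same contrast in wild type. The Q111 and wild-type contrasts share no array. Over probe sets they correlated at 0.985 (Pearson's r; a description, since probe sets share the platform and the tissues), and the SD of the regional difference was 1.35 in Q111 and 1.36 in wild type. Of the 5187 probe sets that differed by at least 2-fold in Q111, 5184 had the same sign in wild type, and 4665 passed the same threshold there, which is 89.9% of the Q111 list and 89.5% of the wild-type list of 5214. Within a genotype, the regional difference of numbers 1 to 3 correlated with that of numbers 4 to 6 at 0.981 in Q111 and 0.980 in wild type. Between genotypes it was lower for the same numbers, 0.972 for 1 to 3 and 0.962 for 4 to 6, and higher for opposite numbers, 0.983 for Q111 1 to 3 with wild type 4 to 6 and 0.986 for Q111 4 to 6 with wild type 1 to 3.

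**Figure D3:**
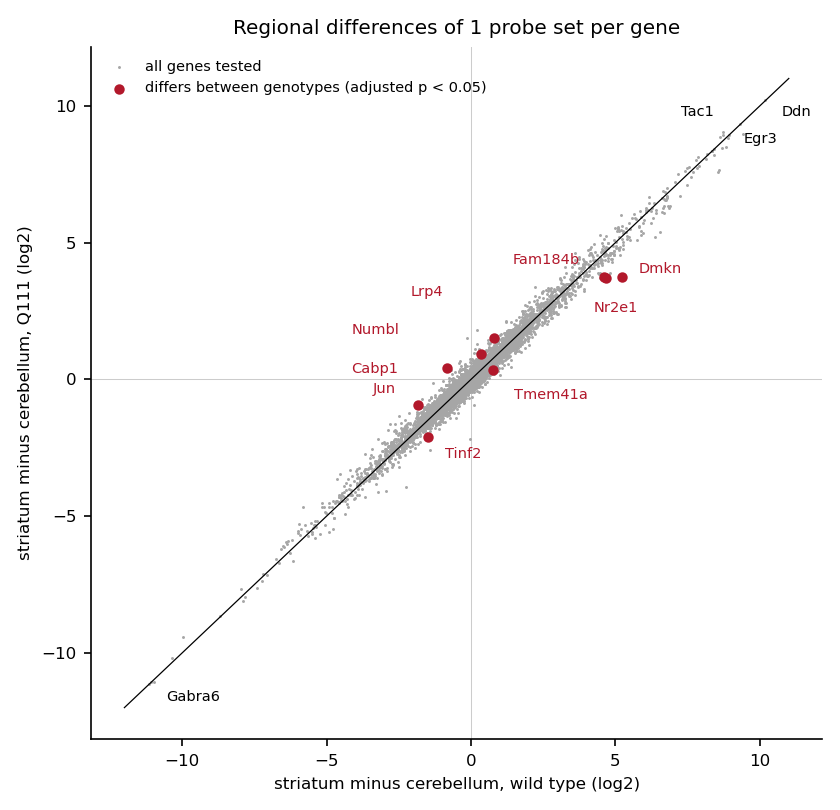
Striatum minus cerebellum in Q111 (vertical axis, log2) against the same difference in wild type (horizontal axis, log2) for 10776 genes (grey), with the line of equality. The points follow the line from Gabra6 at -11.14 to Ddn at 10.23, and the 9 genes whose regional difference differed between genotypes are in red.

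The difference between the regional differences (Q111 minus wild type) passed for 18 of 20749 probe sets (0.0868%), 9 in each direction, or 9 genes (0.0835%); 2103 probe sets had an unadjusted p under 0.05. Among 5139 probe sets whose regional difference averaged at least 2-fold over both genotypes, 2317 (45.1%) were kept, meaning that the 95% interval of the change lay within 1.5-fold either way. In 2812 (54.7%) the interval was wider and the test did not pass, so they were neither kept nor shown to change. The difference was shrunk in Q111 in 8 and widened in 2. With the set of replicate numbers (1 to 3, 4 to 6) as a covariate, 6 of the 18 passed and no other probe set. With arrays of the same number and genotype taken as a replicate block, 2 passed, 1 of them among the 18. In numbers 1 to 3 alone 9 passed, 2 of them among the 18, and in numbers 4 to 6 alone 32, 1 of them among the 18.

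The kept differences include the anchors of both tissues. The 6 kept genes with the largest average difference toward striatum were Gpr6, Ptk2b, Egr3, Grm5, Drd1 and Lmo3, a LIM-domain factor (7.82 in Q111 and 7.89 in wild type). Drd1 differed by 8.24 in Q111 and 8.19 in wild type, Grm5 by 8.34 and 8.33, and Gpr6 by 8.92 in both. Toward cerebellum they were Gabra6, Cbln3, Pcp2, Cnpy1, En2 and Car8, with -7.36 in Q111 and -7.25 in wild type for Car8. The rule for kept bounds the change between genotypes in advance, and in these 12 it was at most 0.25 in size (Egr3). Drd2 was unresolved, at 8.95 against 9.42 (adjusted p = 0.547), and so was Tac1, whose values of 9.32 and 9.30 lay close while its interval was wide.

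Of the 9 genes that changed, 4 had a shrunk difference. Nr2e1, a nuclear receptor that keeps neural stem cells dividing, ran from 6.22 to 6.89 (median 6.38) in Q111 striatum and from 7.15 to 7.74 (median 7.43) in wild-type striatum, while all 12 cerebellum arrays lay between 2.66 and 2.85. The striatal ranges did not overlap, and the cerebellum lay at background in both genotypes. The regional difference was 3.70 in Q111 and 4.69 in wild type, a change of -0.99 (SE 0.14, 95% interval -1.28 to -0.70, adjusted p = 0.0074). With values under 4 set to 4 the differences were at least 2.46 and 3.45.

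Fam184b showed the same form, with 5.56 to 6.21 (median 5.92) in Q111 striatum, 6.38 to 7.19 (median 6.88) in wild-type striatum and 2.13 to 2.30 in cerebellum. Its difference was 3.74 against 4.60 (change -0.86, SE 0.16, adjusted p = 0.0369). Another probe set of the gene read 1.32 against 1.31, or 0.20 against 0.25 with values under 4 set to 4. Dmkn, the gene of the secreted skin protein dermokine, ran from 4.65 to 6.34 (median 4.97) in Q111 striatum and from 6.12 to 7.04 in wild type, with cerebellum under 2. The striatal ranges overlapped through 1 Q111 array (number 4, at 6.34). The change was -1.49 (SE 0.29, adjusted p = 0.0456), from 5.23 in wild type to 3.74 in Q111. With values under 4 set to 4 the Q111 and wild-type differences were at least 1.14 and 2.65 for Dmkn and at least 1.92 and 2.81 for Fam184b.

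Jun, a subunit of the AP-1 transcription factor that cells induce within minutes of a stimulus, was shrunk from both sides. In striatum it ran from 8.26 to 8.64 (median 8.40) in Q111 and from 7.64 to 8.02 (median 7.93) in wild type, with no overlap. In cerebellum it ran from 9.20 to 9.54 (median 9.32) in Q111 and from 9.31 to 10.05 (median 9.73) in wild type, with overlap. Striatum thus lay higher and cerebellum lower in Q111, and the difference in favour of cerebellum was 0.95 rather than 1.83 (change 0.88, SE 0.14, adjusted p = 0.00974). The other Jun probe set moved the same way by 0.23 and did not pass.

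A difference was widened in 2 genes. Lrp4, the receptor for agrin at nerve-muscle synapses, ran from 5.90 to 6.32 (median 6.23) in Q111 striatum and from 5.47 to 5.75 in wild type, and from 4.58 to 4.71 in Q111 cerebellum against 4.72 to 5.12 in wild type. Neither tissue's ranges overlapped, with striatum higher and cerebellum lower in Q111. The difference rose from 0.80 to 1.52 (change 0.72, SE 0.11, adjusted p = 0.00974). Tinf2, a subunit of the shelterin complex at telomeres, ran from 5.74 to 6.08 in Q111 striatum against 6.10 to 6.52 in wild type, and had a median of 8.11 in Q111 cerebellum against 7.79 in wild type. The ranges did not overlap in striatum and did in cerebellum. Its difference in favour of cerebellum went from 1.48 to 2.11 (change -0.63, SE 0.12, adjusted p = 0.0424).

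The remaining 3 genes had an average regional difference under 2-fold. Cabp1, a calcium sensor of synapses, changed sides: its median was 7.47 in Q111 striatum and 7.04 in Q111 cerebellum, and 6.83 and 7.69 in wild type. The Q111 tissues overlapped. The difference was 0.40 in Q111 and -0.82 in wild type (change 1.22, SE 0.24, adjusted p = 0.048). Numbl, an inhibitor of Notch signalling, had 0.91 against 0.34 (change 0.57, adjusted p = 0.0489), and Tmem41a, a membrane protein gene, 0.34 against 0.75 (change -0.41, adjusted p = 0.0473). The 9 were chosen on all 6 numbers together, so their sign in each set of numbers is no separate evidence. Over all tested probe sets the change between genotypes correlated at -0.11 between numbers 1 to 3 and numbers 4 to 6, with the same sign in 46.8%.

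These calls differed in how they held when an array was left out. Nr2e1, Jun and Lrp4 passed in each of the 24 fits that leave out 1 array and with the number set as a covariate (adjusted p = 0.0204, 0.0289 and 0.0204). With the number as a replicate block Nr2e1 passed (adjusted p = 0.0479), and Jun (0.0757) and Lrp4 (0.0797) did not. Leaving out an array ended the call for Fam184b in 9 of 24 fits, Tinf2 in 10, Cabp1 in 16, Dmkn in 17, Tmem41a in 18 and Numbl in 20. Their adjusted p rose at most to 0.0785 (Fam184b, without Q111 cerebellum 3), 0.0968 (Dmkn, without wild-type striatum 4), 0.0923 (Tinf2) and 0.106 (Cabp1, Numbl and Tmem41a), the last 4 without wild-type cerebellum 1.

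**Figure D4:**
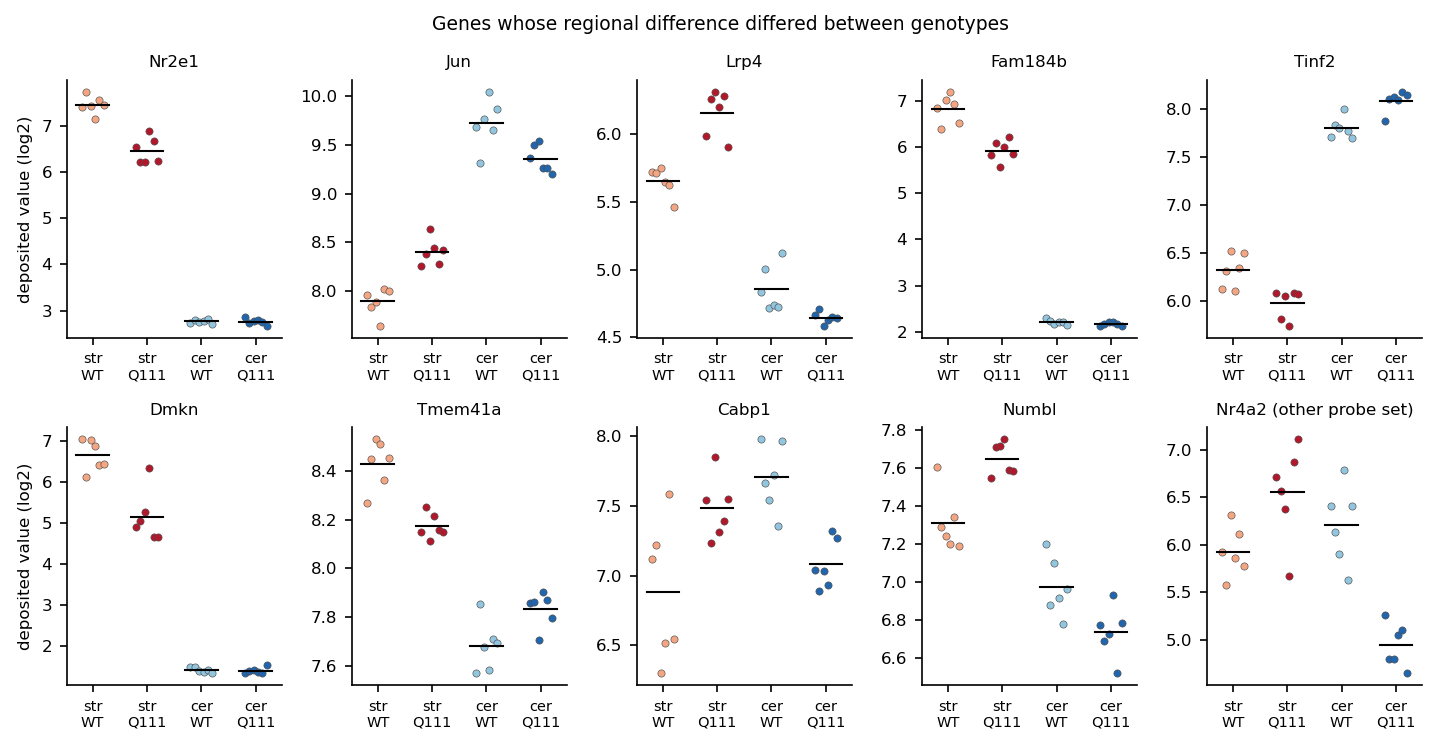
Deposited log2 value (vertical axis, own scale in each panel) on every array of the 9 genes whose regional difference differed between genotypes and of 1 probe set of Nr4a2, for striatum (str) and cerebellum (cer) in wild type (WT) and Q111; points are arrays and bars group means, n = 6. The cerebellum values of Nr2e1, Fam184b and Dmkn lie under 4 in both genotypes, and the genotypes do not overlap in either tissue for Lrp4.

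Of the other 8 probe sets with a gene symbol that passed, each belongs to a gene whose brightest probe set did not pass, so they were singled out after their values were seen. The largest change was that of Nr4a2, a nuclear receptor induced by activity and needed by dopamine neurons. This probe set ran from 5.68 to 7.11 in Q111 striatum, 4.65 to 5.26 in Q111 cerebellum, 5.57 to 6.31 in wild-type striatum and 5.63 to 6.78 in wild-type cerebellum. Q111 cerebellum lay under all wild-type cerebellum arrays. The regional difference was 1.61 in Q111 and -0.29 in wild type (change 1.89, SE 0.28, adjusted p = 0.0074). The brightest Nr4a2 probe set changed by 1.65 with a wider error (adjusted p = 0.141), another by 1.96 (adjusted p = 0.186) and the remaining one by -0.09. For the potassium channel Kcna4 (-0.89 against -0.07 in the brightest), Lin7b (-0.80 against -0.07) and Dach1 (-0.78 against -0.09) the brightest probe set was kept.

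Nr4a2 and Jun belong to the immediate early genes, a set switched on by neuronal activity. Of 17 measured, 11 were higher in Q111 striatum, each by at least 2-fold, 4 were higher in cerebellum and 2 did not pass, with a median of 2.99 in Q111 and 2.81 in wild type. Beside Egr3 the largest were Junb (4.56), Npas4 (3.75, at least 0.98) and the synaptic gene Arc (3.69). Ier2 (-2.65), Jun, Dusp1 (-0.73) and Jund (-0.34) were higher in cerebellum. The change between genotypes was positive in 12 of 17 genes, in 9 in numbers 1 to 3 and in 13 in numbers 4 to 6. Over all 10776 genes it was positive in 5807, in 6375 and in 4955, in the same order. Of the 17, Jun alone passed for the change.

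The windows of 250 bases before the start of 3 genes are printed because their regional difference changed, for Nr4a2 in 1 probe set, and because their letters hold a motif bound by CREB or AP-1 factors, which activity regulates; they were picked after values and letters were seen: Nr2e1 (shrunk; chr10:42583591-42583840, minus strand), Tinf2 (widened; chr14:55681818-55682067, minus strand) and Nr4a2 (chr2:57124004-57124253, minus strand). Sequences and positions are RefSeq's for GRCm38.p6, written 5′ to 3′ on the gene's strand. Capitals mark the cAMP response element TGACGTCA, its first part TGACG and the AP-1 site TGANTCA on either strand; TGACG is contained in TGACGTCA.
Nr2e1: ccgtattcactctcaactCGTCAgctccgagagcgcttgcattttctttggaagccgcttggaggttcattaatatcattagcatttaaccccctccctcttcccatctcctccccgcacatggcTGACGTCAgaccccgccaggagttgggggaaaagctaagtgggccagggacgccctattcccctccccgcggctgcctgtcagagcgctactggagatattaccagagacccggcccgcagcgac
Tinf2: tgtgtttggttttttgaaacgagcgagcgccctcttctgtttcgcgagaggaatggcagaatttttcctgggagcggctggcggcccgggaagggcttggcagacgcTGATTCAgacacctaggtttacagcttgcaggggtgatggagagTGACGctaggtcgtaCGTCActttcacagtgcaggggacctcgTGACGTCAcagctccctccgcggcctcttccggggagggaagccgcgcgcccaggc
Nr4a2: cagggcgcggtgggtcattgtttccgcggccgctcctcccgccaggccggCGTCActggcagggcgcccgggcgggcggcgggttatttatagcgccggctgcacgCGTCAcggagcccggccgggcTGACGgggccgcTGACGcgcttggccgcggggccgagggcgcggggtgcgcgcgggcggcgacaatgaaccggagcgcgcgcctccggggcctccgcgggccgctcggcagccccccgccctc

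Of the 9 genes that changed, 8 matched the RefSeq table by symbol, and Lrp4 did not. The full TGACGTCA lay in the windows of 2 of them, Nr2e1 (shrunk) and Tinf2 (widened), and in 1.55% of all 32851 windows of this length outside chromosome 18. TGACG lay in a window of 3 of the 8 (Dmkn, Nr2e1 and Tinf2) and in 17.8% of all windows. TGANTCA lay in windows of 2 (Dmkn and Tinf2) and in 6.75% of all. Dmkn has 3 windows, with TGACG in 1 of them, and Cabp1 has 2. A count of genes with any such window is therefore unlike a share of single windows. Of 15 immediate early genes with an entry, 12 had TGACG in at least 1 window; Egr2 and Homer1 have several windows. The Jun window held none of the 3. Windows were not matched for base composition, and a match describes letters, not binding.

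Only 2 of the 37 gene lists held a gene that passed for the change, the forebrain factors (Nr2e1) and the immediate early genes (Jun). For striatal projection neurons the median was 4.80 in Q111 and 5.12 in wild type, and 24 of 33 genes lay nearer to 0 in Q111, while 48.8% of all 10776 genes lay farther from 0 in Q111. Bcl11b (7.64 against 8.57, adjusted p = 0.0702), Pde1b (7.59 against 8.54, adjusted p = 0.187) and Rarb (5.39 against 6.54, adjusted p = 0.163) had the widest gaps among its named members. The count differed between the sets of numbers: 2 of 33 lay higher in Q111 than in wild type in numbers 1 to 3, and 16 of 33 in numbers 4 to 6. Lists of neighbouring tissue and other striatal cells moved between the sets too. In numbers 1 to 3 the change was positive in 11 of 11 cortex genes (median 0.71), 10 of 11 thalamus and septum genes (median 0.90) and 9 of 10 interneuron genes. In numbers 4 to 6 it was positive in 6 of 11, 1 of 11 and 1 of 10. Their part in the lean of the projection neuron genes was not tested.

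Other lists had leans of their own, with no gene past the threshold. All 9 GABA-A receptor subunits lay farther from 0 in Q111, or 8 of 9 after quantile normalisation or median centring; the widest gap was that of Gabra5 (4.85 against 4.15, adjusted p = 0.108). Of 52 oxidative phosphorylation genes 40 lay farther from 0 in Q111 (34 and 45 under the 2 scalings), with 33 changes positive in numbers 1 to 3 and 9 in numbers 4 to 6, so its direction turned between the sets. In cortex genes the change was positive, toward striatum in Q111, in 10 of 11 (11 after quantile normalisation and 9 after median centring), and 7 of 11 lay farther from 0, with Neurod6 at 3.36 against 2.21 (adjusted p = 0.0903) and positive in both sets (1.54 and 0.76). Of the synaptic genes, Stx1a had 4.63 against 3.60 (adjusted p = 0.118), and of the clock genes Npas2 had 5.29 against 4.47 (adjusted p = 0.207).

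**Figure D5:**
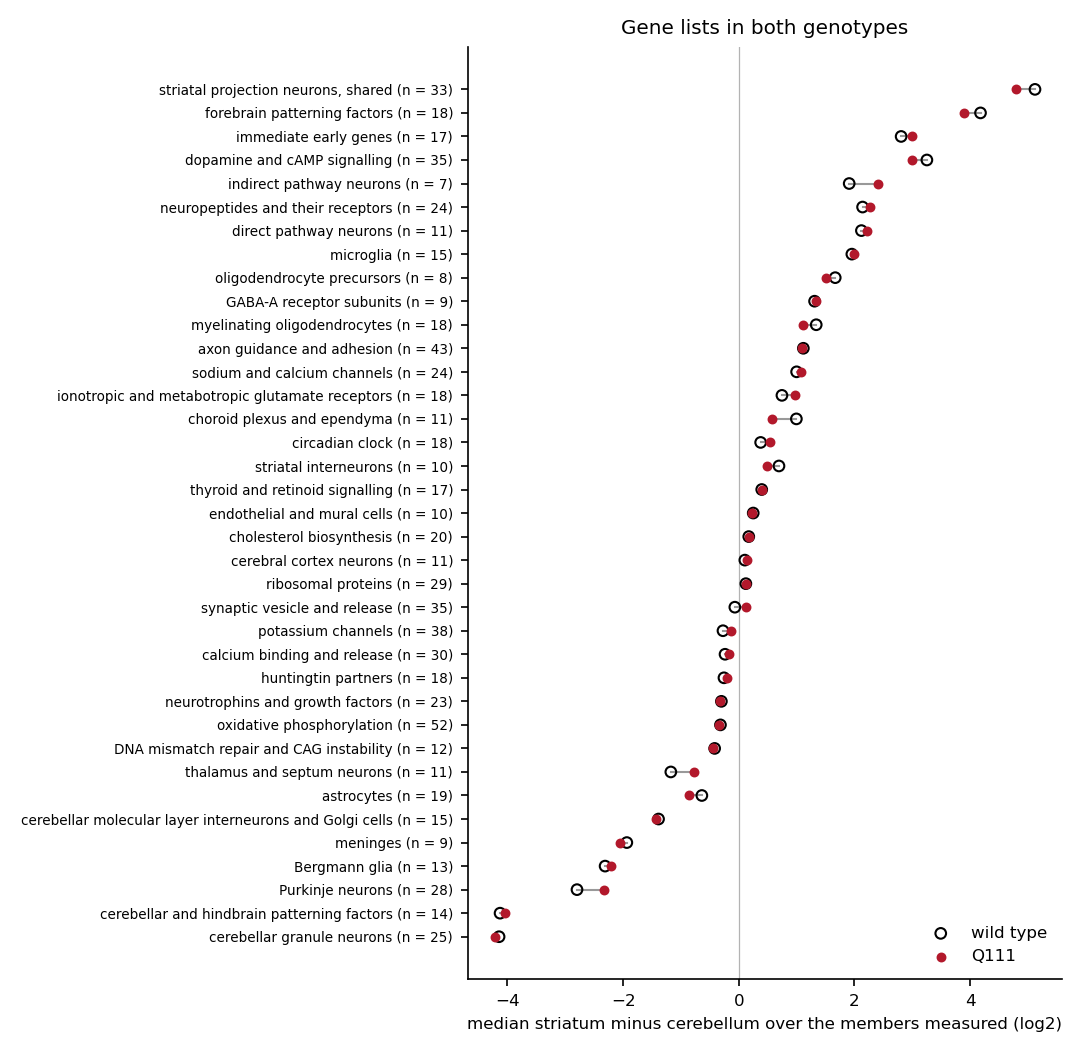
Median striatum minus cerebellum (horizontal axis, log2) over the measured members of each of 37 gene lists in Q111 (filled) and wild-type (open) mice; n is the number of genes measured. The order of the lists runs from granule neurons (-4.22 in Q111) to striatal projection neurons (4.80 in Q111, 5.12 in wild type).

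Regional differences in favour of cerebellum were on the whole slightly smaller in Q111. Of 2668 such probe sets 61.6% had a smaller difference in Q111, with a median change in size of -0.07, against 46.7% and 0.02 for the 2471 in favour of striatum. At an unadjusted p under 0.05, 237 on the cerebellar side were smaller and 83 larger, and 137 and 199 on the striatal side. The cerebellar share was 62.3% in numbers 1 to 3 and 52.4% in numbers 4 to 6. It was 55.4% after quantile normalisation and 54.2% after median centring, when the striatal share was 48.9% and 54.1%, so most of the gap between the sides depended on the scaling of the arrays.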

How the data were processed

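Total RNA of striatum and cerebellum was extracted with Trizol, cleaned on Qiagen columns, labelled with biotin and hybridised to Affymetrix MG430 2.0 arrays, per the labels' protocols. The deposited values are GCRMA expression values, per the submitters' processing notes, and were read as log2. The log base and the GCRMA version are not given in the sources used here. No further normalisation was applied, and 64 control probe sets were left out. A probe set was tested if its mean reached 4 in Q111 striatum or Q111 cerebellum. Symbols came from the platform annotation: 34945 probe sets have 1 symbol, 932 several and 9160 none, and the last 2 kinds were named after no gene.

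Group means of all 24 arrays were fitted in R 4.3.3 by limma 3.58.1, with Benjamini-Hochberg adjustment over the 20749 tested probe sets at 0.05. The contrasts were striatum minus cerebellum in Q111, the same in wild type, and the first minus the second. A gene was read by its probe set of highest mean. The number of arrays, 6 a group, limits the precision, and the median 95% half-width of the change between genotypes was 0.31. Data were simulated for 20749 probe sets with normal noise independent between probe sets and arrays, and 50 differences of each size were added. The test of the Q111 contrast recovered 68% of those of 0.5 and 98% of those of 1, with 12 false calls. The test of the change recovered 52% and 76%, with 21 false calls. In the data 14808 probe sets passed for the Q111 contrast and 18 for the change, unlike the numbers added. The adjusted threshold depends on how many probe sets differ, so the recovered shares need not hold for the data. The simulation held no shift shared across probe sets, so it cannot tell how many of the 18 calls are false.

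Genes named are the 12 largest each way, all whose change between genotypes passed, up to 4 of each list with the largest passing difference plus list members that changed, the 6 largest kept each way, and Htt. Other names were added after values were seen. The members and lists were chosen with earlier results of these data known. Alternatives tried were the filter, a floor at 4, array scaling, array weights, the prior, thresholds, replicate numbers, other probe sets and leaving out each array.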

Additional observations from a re-analysis of the deposited data

Results flagged for a closer look

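In groups of 6 arrays, 9 of 92 groups examined over 37 genes (9.78%) held an array far from the others by Dixon's criterion, where chance gives about 1 in 20. In Q111 striatum, array 4 was high for Dmkn (6.34, next 5.27) and Pcp2 (3.45, next 3.29), array 3 was low for Grm5 (11.55, next 12.13) and Fat2 (2.49, next 3.24), and array 1 was low for Arhgef33 (2.71, next 3.05). In Q111 cerebellum, array 4 was high for Ptk2b (2.04, next 1.84), array 2 high for Drd1 (3.44, next 2.90) and array 1 low for Tinf2 (7.88, next 8.10). In wild-type striatum, array 1 was high for Numbl (7.60, next 7.34).

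The regional difference differed between the genotypes, by limma's test of that change, in 18 probe sets. Those that stand for their gene changed by 1.22 (Cabp1), 0.88 (Jun), 0.72 (Lrp4), 0.57 (Numbl), -0.41 (Tmem41a), -0.63 (Tinf2), -0.86 (Fam184b), -0.99 (Nr2e1) and -1.49 (Dmkn). Others of their genes changed by 1.89 (Nr4a2), 1.05 (Efhd2), 0.93 (Cdh4), 0.92 (Ccdc177), 0.52 (Snx16), -0.78 (Dach1), -0.80 (Lin7b) and -0.89 (Kcna4). A probe set with no symbol here changed by -1.33, from 2.99 in wild type to 1.67 in Q111. With values under 4 set to 4 these were 1.76 and 0.44.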

How the results depend on the processing

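Over the 149 named genes, 3938 of 3963 alternative values of the Q111 regional difference kept direction and side of the threshold. Of the rest 19 lost the call, 2 gained it and 4 reversed. Most of these genes were named for a large passing difference, so their stability was largely fixed by that choice. It does not show how the other tested genes held. The reversals were other probe sets of Htt (-1.12), Rpl22 (-0.59), Rpl41 (-0.45) and Fam184b (-0.044); a further Fam184b probe set reversed the change between genotypes (0.0042). Without 1 array, 14451 to 14652 probe sets passed in Q111, 2489 to 2605 were at least 2-fold higher in striatum and 2551 to 2714 in cerebellum. At 1.5-fold these were 3902 and 4788.

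The change between genotypes was less stable: for the 9 genes, 198 of 336 alternative values kept the call, 137 lost it and 1 reversed. The 18 probe sets became 40 with values under 4 set to 4 (shrunk 17, widened 8), 64 with array weights (25 and 4), 6 with the number set as a covariate (4 and 1), and 4 at an adjusted p of 0.01 (2 and 1). In numbers 1 to 3 alone they were 9, with 946 kept, and in numbers 4 to 6 alone 32, with 765 kept and 12 widened. Kept probe sets numbered 4716 at an average of 1.5-fold and 107 when kept meant within 1.2-fold. Without 1 array the counts ran from 6 to 50 for the change, 4 to 22 for shrunk, 1 to 7 for widened and 2156 to 2308 for kept. The change fell to 6 without Q111 striatum 1, Q111 cerebellum 3 or wild-type cerebellum 3, to 7 without Q111 striatum 5 or Q111 cerebellum 2 or 5, to 8 without wild-type striatum 3 or wild-type cerebellum 1, 4 or 6, to 9 without wild-type striatum 4, to 10 without Q111 cerebellum 1, to 11 without Q111 striatum 6 and to 12 without Q111 striatum 3 or wild-type cerebellum 5. It rose to 28 without wild-type striatum 5, 30 without Q111 striatum 2 or 4, 39 without wild-type cerebellum 2 and 50 without wild-type striatum 1. The cause was not tested.

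Striatum and cerebellum arrays of the same number deviated together at -0.05 to 0.14 in Q111 and 0.00 to 0.18 in wild type, over 0.1 in 2 and 3 of 6 pairs. In Q111 2 striatum arrays correlated best with their own number, 3 (0.07) and 6 (0.10). In wild type 3 did, namely numbers 4 (0.11), 5 (0.15) and 6 (0.18). The main fit did not take the numbers as pairs, and the labels do not say whether some of them are. With the number as a replicate block, 2 probe sets passed for the change, 1 of them among the 18 (Nr2e1, adjusted p = 0.0479), with 1 shrunk and 0 widened.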
